A study of Solanum lycopersicum with 9 samples.

Results

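The genes described here encode 5 translation factors of tomato (Solanum lycopersicum): the 4 annotated members of the eIF-5A family, eIF-5A1, eIF-5A2, eIF-5A3 and eIF-5A4, and the cap-binding factor eIF4E1. They were found by their gene symbols in the annotation of the Affymetrix tomato array. Each symbol belonged to 1 probe set, so the 5 genes, of 802 with a symbol, were measured by 5 of the 10038 probe sets that are not controls. A probe set is the group of short probes that reads 1 transcript, and 909 of the 10038 carried a gene symbol.

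The silenced plants carried an antisense construct against Asr1, a gene named after abscisic acid, stress and ripening. Mesocarp of red ripe fruit of cultivar Money Maker was profiled in 3 pools of the silenced line AS5, 3 pools of the silenced line AS17 and 3 pools of wild type (WT), all grown in 1 greenhouse regime. Each pool was read on its own array, and the silencing is represented by 2 lines. The labels describe pools of fruit from several plants of a line, so n counts pools, and p-values measure only the spread between pools, which may be partly technical. Neither the promoter of the construct nor the number of its insertions is stated in the labels. No probe set carried an Asr symbol or synonym, so the silencing itself is not analysed here.

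eIF-5A is a small and highly conserved protein that binds the ribosome and helps it through stretches that are slow to translate, such as runs of proline. It is known for hypusine, an amino acid made on 1 of its lysines from spermidine by deoxyhypusine synthase and then completed by a hydroxylase. Plants carry several eIF-5A genes, which have been linked to growth, to senescence and, in tomato, to fruit softening. eIF4E binds the 5′ cap of mRNA and, with the scaffold eIF4G, brings the mRNA to the small ribosomal subunit, and tomato eIF4E1 is also known as a host factor of potyviruses.

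Expression is given as the deposited RMA value on the log2 scale, in which a difference of 1 is a doubling. All 45 values of the 5 genes were above the background of their array, set at the 95th percentile of 63 reporter-gene controls. This background lay between 1.57 and 1.98 on silenced-line arrays and between 1.41 and 1.56 on WT arrays. As a check of the tissue, 8 ripe-fruit marker genes that carried a symbol were above background on all 9 arrays. Among them were PG2 (polygalacturonase), E8 and RIN. So were 7315 of the 10038 tested probe sets. Of the markers listed for other tissues, all 3 green-tissue, the 1 vascular and 1 of 2 epidermal markers were too. Presence above background therefore does not set ripe mesocarp apart from these tissues. The mean level of the 8 ripe-fruit markers ranged from 9.94 to 10.58 in silenced pools and from 9.92 to 10.05 in WT pools. Of the 8, 0 passed the test described below. Both markers with the widest differences are given, chosen after their values were seen. ACS2, an enzyme of ethylene synthesis, stood at 9.86 to 10.85 in silenced pools and 8.58 to 9.64 in WT pools without overlap (difference of both lines 1.10, adjusted p = 0.131 in limma). Of all probe sets, 4.73% separated in this way, with every silenced pool higher. Cel2, a cellulase, averaged 8.91 ± 0.97 in AS17, 7.12 ± 0.68 in AS5 and 7.07 ± 0.26 in WT (SD, n = 3 each), a difference of 1.84 for AS17 minus WT (adjusted p = 0.107 in limma) and 1.79 for AS17 minus AS5 (adjusted p = 0.764 in limma). The part of these markers in the results below was not tested. The 1 gene found of those listed for seed and embryo, ER5, was above background on 2 of 9 arrays. How well it marks seed was not tested. AS5 pool 3 and AS17 pool 1 stood apart from the other arrays in earlier work on these data, and they had the smallest 3′ minus 5′ signal of the gapdh control (0.619 and 0.550, against 0.939 to 1.06 in the other silenced pools and 0.830 to 1.03 in WT pools). The same measure of the ef1a control did not set both apart, with 2.61 in AS5 pool 3 and 2.91 in AS17 pool 1, against 2.79 to 3.54 in the other silenced pools and 3.17 to 3.76 in WT pools. Results that turn on these 2 pools are also given without them.

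eIF-5A1 was the gene of the family with the widest separation between silenced and WT fruit. Its log2 value was 12.08, 11.94 and 12.30 in AS5 pools 1, 2 and 3 and 12.23, 12.10 and 12.05 in AS17 pools 1, 2 and 3, against 11.68, 11.71 and 11.78 in WT pools 1, 2 and 3. All 6 silenced pools were above all 3 WT pools, and the lowest silenced pool lay 0.17 above the highest WT pool. Such a separation, with every silenced pool higher, was found for 4.73% of all probe sets. In order of level, AS17 averaged 12.13 ± 0.09, AS5 12.11 ± 0.18 and WT 11.72 ± 0.05 (SD, n = 3 pools each), and the means of AS17 and AS5 differed by less than the spread within either line.

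The difference of eIF-5A1 from WT did not pass the test across the array. Over both lines it was 0.39 on the log2 scale (SE 0.11, 95% confidence interval 0.15 to 0.63), or 1.31-fold (interval 1.11 to 1.55), with an unadjusted p of 0.00477 and a Benjamini-Hochberg adjusted p of 0.125 in limma. For AS5 alone it was 0.39 (SE 0.12, adjusted p = 0.349 in limma), and for AS17 alone 0.40 (SE 0.12, adjusted p = 0.141 in limma). These comparisons share the WT pools, so their likeness is not independent support. An unadjusted p under 0.05 was reached by 15.5% of all probe sets for the mean of both lines, and 3.80% had a smaller p than eIF-5A1.

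The 2 highest eIF-5A1 values belonged to AS5 pool 3 and AS17 pool 1. Without them the difference was 0.32 (adjusted p = 0.119 in limma). The signal of eIF-5A1 was near the top of the scale, since the highest value of any probe set was 12.53 to 12.64 on silenced-line arrays and 12.82 to 12.88 on WT arrays, and whether this narrowed its difference was not tested. In whole mesocarp, more RNA per cell and more cells of an expressing type cannot be told apart.

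**Figure D1:**
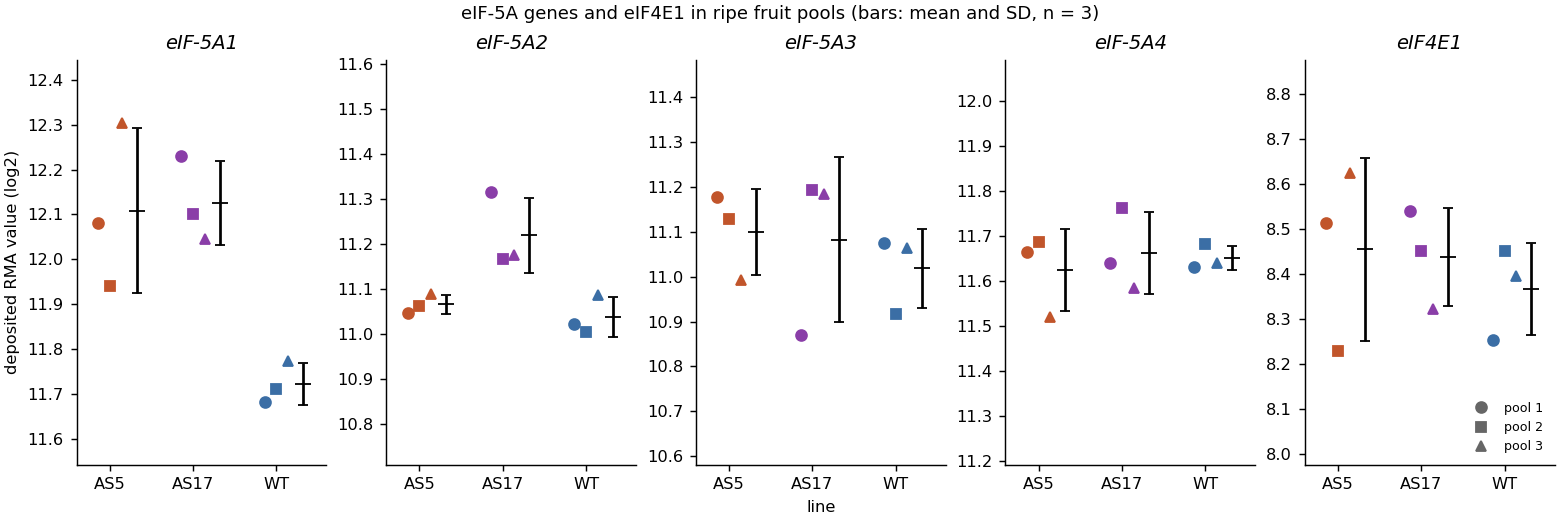
Deposited log2 values (y axis, a span of 0.9 in every panel) of the 5 genes in each pool of AS5, AS17 and WT. Points are pools and black bars are the mean and SD of 3 pools. In the eIF-5A1 panel all 6 silenced pools (11.94 to 12.30) lie above the 3 WT pools (11.68 to 11.78), while in the other panels the pools of at least AS5 and WT overlap.

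eIF-5A2 separated AS17 from both other lines. It stood at 11.05, 11.06 and 11.09 in AS5 pools 1, 2 and 3 and at 11.32, 11.17 and 11.18 in AS17 pools 1, 2 and 3, against 11.02, 11.00 and 11.09 in WT pools 1, 2 and 3. All AS17 pools were above all WT pools, as were those of 9.10% of probe sets. The AS17 pools were also all above the AS5 pools, as in 1.24% of probe sets. AS5 and WT overlapped.

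The mean of eIF-5A2 was 11.22 ± 0.08 in AS17, 11.07 ± 0.02 in AS5 and 11.04 ± 0.04 in WT (SD, n = 3 each). Its difference between AS17 and WT was 0.18 (SE 0.10, 95% interval -0.04 to 0.40) and did not pass (adjusted p = 0.384 in limma). AS17 minus AS5 was 0.15 (SE 0.10, interval -0.07 to 0.37, adjusted p = 0.874 in limma), a comparison in which 0.00% of all probe sets passed and 5.89% reached an unadjusted p under 0.05. For AS5 minus WT, the difference of eIF-5A2 was 0.03 (SE 0.10), and it was negative after the arrays were centred on their medians or quantile normalised (-0.00374 and -0.0287).

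eIF-5A3 and eIF-5A4 had overlapping pools in every comparison. eIF-5A3 stood at 11.18, 11.13 and 10.99 in AS5 pools 1, 2 and 3 and at 10.87, 11.19 and 11.18 in AS17 pools 1, 2 and 3, against 11.08, 10.92 and 11.06 in WT pools 1, 2 and 3. Of the silenced pools, 4 were above the highest WT pool and 1, AS17 pool 1, was below the lowest. The line means ran in the order AS5 (11.10 ± 0.10), AS17 (11.08 ± 0.18) and WT (11.02 ± 0.09; SD, n = 3 each), with each neighbouring pair closer than the spread of its pools. Over both lines the difference from WT was 0.07 (SE 0.11, 95% interval -0.17 to 0.32, adjusted p = 0.806 in limma). Without AS5 pool 3 and AS17 pool 1 it was 0.15 (adjusted p = 0.401 in limma), more than 1.5 times as large, and it did not pass.

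eIF-5A4 had the smallest range of the 5 genes over the 9 pools. It stood at 11.66, 11.69 and 11.52 in AS5 pools 1, 2 and 3 and at 11.64, 11.76 and 11.58 in AS17 pools 1, 2 and 3, against 11.63, 11.68 and 11.64 in WT pools 1, 2 and 3. The WT pools lay inside the range of the silenced pools. Its means were 11.66 ± 0.09 in AS17, 11.62 ± 0.09 in AS5 and 11.65 ± 0.03 in WT (SD, n = 3 each), and no pair of lines differed beyond its spread. The difference of both lines from WT was -0.01 (SE 0.09, adjusted p = 0.98 in limma), with a 95% interval of -0.21 to 0.19, or 0.864-fold to 1.14-fold.

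eIF4E1, the cap-binding factor, did not separate the lines either. It stood at 8.51, 8.23 and 8.62 in AS5 pools 1, 2 and 3 and at 8.54, 8.45 and 8.32 in AS17 pools 1, 2 and 3, against 8.25, 8.45 and 8.40 in WT pools 1, 2 and 3. The lowest value of all and the highest both came from AS5, and its groups overlapped. Means of 8.45 ± 0.20 in AS5, 8.44 ± 0.11 in AS17 and 8.37 ± 0.10 in WT (SD, n = 3 each) differed by less than these spreads. Over both lines the difference from WT was 0.08 (SE 0.12, 95% interval -0.18 to 0.34, adjusted p = 0.797 in limma), and without AS5 pool 3 and AS17 pool 1 it was 0.01.

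**Figure D2:**
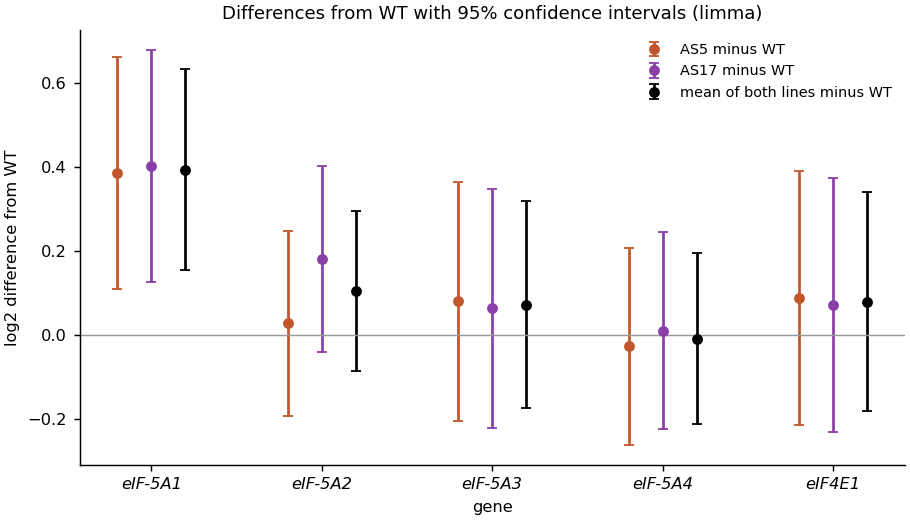
Log2 difference from WT (y axis) of each gene (x axis) for AS5, AS17 and the mean of both lines, with 95% confidence intervals from limma. The intervals of eIF-5A1 lie above 0 in all 3 comparisons before adjustment for the 10038 tests, and those of the other 4 genes include 0.

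As a set, 0 of the 5 genes passed at an adjusted p under 0.05 in limma in any comparison. Among all probe sets, 0.379% passed for AS5 minus WT, 1.34% for AS17 minus WT and 1.28% when both lines were averaged. An unadjusted p under 0.05 was reached by 1 of the 5 genes, eIF-5A1, in each comparison with WT, where the share of all probe sets was 9.24% for AS5, 17.3% for AS17 and 15.5% for the mean of both lines. The median difference of the 5 genes for the mean of both lines was 0.08, against 0.00 over all probe sets, so these genes lay close to the centre of the array apart from eIF-5A1.

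**Figure D3:**
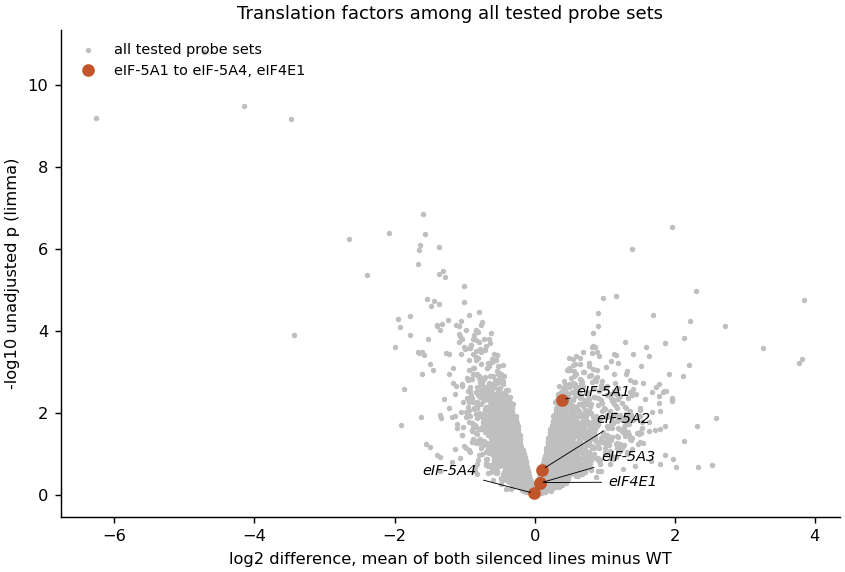
Log2 difference of the mean of both silenced lines from WT (x axis) against -log10 of the unadjusted limma p (y axis) for all 10038 tested probe sets (grey), with the 5 genes in orange. eIF-5A1 lies on the right flank of the grey cloud at 0.39, and the other 4 genes lie at its base between -0.01 and 0.10.

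The separation of eIF-5A1 was also seen relative to the other eIF-5A genes on the same array. Within each array, the log2 value of eIF-5A1 minus that of eIF-5A4 was 0.42, 0.25 and 0.78 in AS5 pools 1, 2 and 3 and 0.59, 0.34 and 0.46 in AS17 pools 1, 2 and 3, against 0.05, 0.03 and 0.14 in WT pools 1, 2 and 3. Silenced and WT pools did not overlap in this within-array difference. The same held for eIF-5A1 minus eIF-5A2, with 0.87 to 1.22 in silenced pools and 0.66 to 0.71 in WT pools. It held narrowly for eIF-5A1 minus eIF-5A3, with 0.81 to 1.36 in silenced pools and 0.61 to 0.79 in WT pools. All 3 pairs contain eIF-5A1, which by itself separates the groups, so they largely restate that separation, and they carry no test. The binding of each probe set differs, so the differences compare pools and not the amounts of the transcripts, and how far probes of one eIF-5A gene also bind transcripts of another was not tested.

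**Figure D4:**
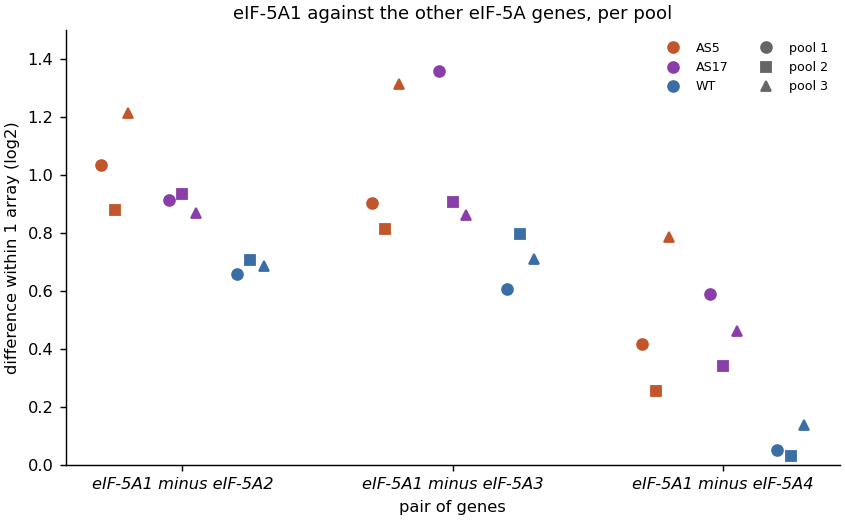
Within-array log2 difference between eIF-5A1 and each other eIF-5A gene (y axis) per pool of AS5, AS17 and WT, for 3 gene pairs (x axis). In each pair the 6 silenced pools lie above the 3 WT pools, most narrowly for eIF-5A3 (0.81 in the lowest silenced pool and 0.79 in the highest WT pool).

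Most correlations of eIF-5A1 with the other genes turned on 2 pools. Over 9 pools, eIF-5A1 had a Pearson r of 0.66 with eIF4E1, 0.63 with eIF-5A2, -0.02 with eIF-5A3 and -0.30 with eIF-5A4. Over the 7 pools other than AS5 pool 3 and AS17 pool 1, r was 0.31 with eIF4E1, 0.69 with eIF-5A2, 0.85 with eIF-5A3 and 0.27 with eIF-5A4. Of these, r with eIF-5A2 moved least. AS5 pool 3 and AS17 pool 1 were the 2 highest pools in both eIF-5A1 and eIF4E1, and they ranked low in eIF-5A3, where AS17 pool 1 at 10.87 was the lowest of all. These values describe pools that share line and array.

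The range over all 9 pools was 0.24 for eIF-5A4, 0.31 for eIF-5A2, 0.32 for eIF-5A3, 0.40 for eIF4E1 and 0.62 for eIF-5A1. The median range was 0.79 over the 7315 probe sets above background on every array, but bright probe sets had smaller ranges. Among probe sets whose mean level was within 0.5 of the gene's own, a comparison chosen after seeing the data, the median range was 0.35 for eIF-5A1 (n = 54 probe sets), 0.39 for eIF-5A2 (n = 205), 0.40 for eIF-5A3 (n = 212), 0.38 for eIF-5A4 (n = 104) and 0.68 for eIF4E1 (n = 899).

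Of these probe sets of like level, 87.0% had a smaller range than eIF-5A1, which was thus wide for its brightness. The share was 34.1% for eIF-5A2, 35.4% for eIF-5A3, 18.3% for eIF-5A4 and 11.1% for eIF4E1. Against all 7315 probe sets the same shares were 31.6% for eIF-5A1, 4.27% for eIF-5A2, 4.84% for eIF-5A3, 1.63% for eIF-5A4 and 8.84% for eIF4E1, so all 5 shares were higher beside probe sets of like level. The range of eIF-5A1 spans silenced and WT pools, which its separation widens. By the spread within lines, 66.7% of probe sets of like level had a smaller SD than eIF-5A1.

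The named genes whose profile over the 9 pools was most like that of each factor were picked by Pearson r among 619 named probe sets above background on every array. For eIF-5A1 they were LOC543892 (r = 0.924), PPCK1, a kinase of phosphoenolpyruvate carboxylase (r = 0.909), and GABA-TP2, a GABA transaminase (r = 0.905). Their r without AS5 pool 3 and AS17 pool 1 was 0.94, 0.87 and 0.80. For eIF-5A2 they were ADC (r = 0.895), LHA2, a plasma membrane proton pump (r = 0.84), and GP1 (r = 0.84). ADC encodes arginine decarboxylase, which starts a route to the polyamines. Without the 2 pools r was 0.83 for ADC, 0.79 for GP1 and 0.46 for LHA2, so the likeness of LHA2 rested on them.

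For eIF-5A3 the nearest profiles were GABA-TP3 (r = 0.91), TMT (r = 0.91) and Rab1A, a small GTPase of vesicle transport (r = 0.90). For eIF-5A4 they were ACS4, an enzyme of ethylene synthesis (r = 0.90), MT4 (r = 0.89) and UREF (r = 0.88). For eIF4E1 they were ail (r = 0.92), FTA, a subunit of farnesyltransferase (r = 0.84), and LOC778315 (r = 0.84). No gene appeared beside more than 1 of the 5 factors. These are the highest of 619 values each, over 9 pools that share line and array, and are descriptions without a test.

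Hypusine and polyamine genes were examined next, because spermidine supplies the side chain of hypusine. Of 8 such genes with a symbol, 0 passed in either direction in limma for the mean of both lines (1.28% of all probe sets). An unadjusted p under 0.05 was reached by 2 of the 8 (background 15.5%). All 8 differences were positive, from 0.01 to 1.32, with a median of 0.47, against 0.00 over all probe sets. Of the 8, 7 were above background on all arrays. The exception, ARG2, an arginase by its symbol, was above background on 5 of 9 arrays, and its difference was 0.40, or -0.23 without the 2 pools. Without AS5 pool 3 and AS17 pool 1 the median was 0.22 and 5 of 8 were positive, so the size and the sign count rested on those 2 pools.

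ADC stood between 9.54 and 10.53 in silenced pools and between 9.13 and 9.48 in WT pools, without overlap. Its difference was 0.54 (SE 0.19, adjusted p = 0.235 in limma). SAM3, an enzyme that makes S-adenosylmethionine, the donor of the aminopropyl groups of spermidine, stood between 9.85 and 11.14 in silenced pools and between 9.31 and 9.82 in WT pools, a difference of 0.79 (SE 0.29, adjusted p = 0.24 in limma). SAM1, of the same enzyme family, ranged from 11.14 to 11.46 in silenced pools and from 11.04 to 11.10 in WT pools, a difference of 0.20 (SE 0.10, adjusted p = 0.355 in limma). The silenced pools of these 3 genes were all above the WT pools, as were those of 4.73% of probe sets.

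Without AS5 pool 3 and AS17 pool 1, the differences of ADC, SAM3 and SAM1 were 0.37, 0.52 and 0.16. A probe set annotated adc1 differed by 1.32 (SE 0.72, adjusted p = 0.428 in limma), or 0.54 without the 2 pools, and its pools overlapped. The files give no product for adc1, so it may not be an arginine decarboxylase. DHS, the gene of deoxyhypusine synthase by its symbol, was picked after its values were known. It stood between 7.58 and 8.41 in silenced pools and between 7.83 and 8.08 in WT pools. Its difference was 0.01 (SE 0.18, adjusted p = 0.993 in limma), or -0.10 without the 2 pools.

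Other genes on a list of translation-related genes lay near WT in the mean of both lines. The list matched 7 genes, but 1, ERF-H1, is an ethylene response factor whose synonym ERF1 equals the name of a release factor, and it is left out of what follows. Of the remaining 6, RPL8, RPL3, RPL37, rpl38, RPS25 and TCTP, 0 passed in limma for the mean of both lines (1.28% of all probe sets), 5 had a positive difference, and 1 had an unadjusted p under 0.05, a share close to the 15.5% of all probe sets. Their differences ran from -0.04 to 0.23, with a median of 0.09, or 0.14 without AS5 pool 3 and AS17 pool 1.

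RPL8, a protein of the large ribosomal subunit, had the widest difference of the 6 over all pools, and rpl38 the widest without AS5 pool 3 and AS17 pool 1. RPL8 averaged 11.86 ± 0.09 in AS5, 12.02 ± 0.08 in AS17 and 11.71 ± 0.08 in WT (SD, n = 3 each), a difference of 0.23 for the mean of both lines (SE 0.09, adjusted p = 0.279 in limma). For AS17 minus WT its difference was 0.31 (SE 0.11, adjusted p = 0.184 in limma). All its AS17 pools were above all WT pools, as were those of 9.10% of probe sets. The values of its silenced pools, 11.78 to 12.08, met the top of the WT range, 11.62 to 11.78. rpl38, TCTP (a translationally controlled tumour protein homologue) and RPS25 of the small subunit had overlapping pools and differences of 0.15, 0.09 and 0.10 (adjusted p from 0.658 to 0.754 in limma). Without those 2 pools, rpl38 differed by 0.27, RPL8 by 0.20 and RPS25 by 0.18, and none of the 3 passed (adjusted p = 0.191, 0.309 and 0.366 in limma).

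**Figure D5:**
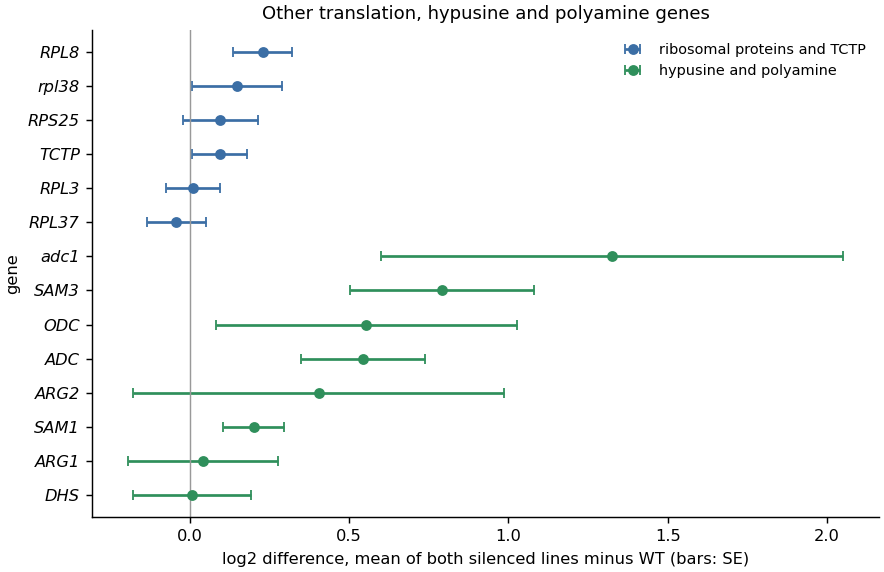
Log2 difference of the mean of both silenced lines from WT (x axis, bars are limma's SE) for 6 genes of the translation list (ribosomal proteins and TCTP) and 8 hypusine and polyamine genes (y axis). The 6 lie between -0.04 and 0.23, and the 8 between 0.01 for DHS and 1.32 for adc1, with wider errors.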

How the data were processed

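Log2 expression values of 10209 probe sets on 9 arrays were used as deposited. The authors made them with RMA, per the submitters' processing notes. RMA removes background, scales the arrays to a common distribution and combines the probes of a set, which can compress differences. Its version is not given in the sources used here. Left out were 171 control probe sets. Gene symbols came from GEO's platform annotation, which can be old, and all 5 members matched the RefSeq table of assembly SLM_r2.1 by Entrez identifier.

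The other 10038 probe sets were fitted by lmFit and eBayes of limma 3.58.1 (R 4.3.3), with a mean for each line. Each line and their average were compared with WT, and AS17 with AS5, with Benjamini-Hochberg adjustment over all probe sets and a threshold of 0.05. Figures used matplotlib 3.10.9 in Python 3.11.15. The code was tested on simulated data. Alternatives changed the dim-probe filter, scaling, variance model, array weights, block, groups in the fit, threshold and pools included. Named were all members, the 3 named probe sets with the highest r per member, and up to 4 genes per list with the smallest p. A gene with several probe sets was represented by the brightest, and lists were matched by symbol or synonym. Members, lists and alternatives were chosen with earlier results of these data known. Markers were also listed for vascular (1 gene found), epidermal (2) and green tissue (3). Of these, 0 passed in limma for the average of the lines (lowest adjusted p = 0.305), against 1.28% of all probe sets.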

Additional observations from a re-analysis of the deposited data

Results flagged for a closer look

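Of 22 control probe sets for tomato genes, which were not part of the test, 5 had all 6 silenced pools above all 3 WT pools. Among the tested probe sets the share was 4.73%, but several of the 22 read different parts of 1 gene and are not independent. The 3 ubiquitin control probe sets were higher in silenced pools by 0.87 (3′), 1.02 (5′) and 0.97 (middle) on the log2 scale. The middle actin control was higher by 0.36, though its pools nearly touched (9.07 in the lowest silenced and 9.06 in the highest WT pool). The middle probe set of the control named GlutTrans was higher by 0.26, and its pools nearly touched too (5.11 in the lowest silenced and the highest WT pool). The other 17 did not separate in this way, among them the 3′ and 5′ probe sets of actin and of GlutTrans. None of these differences was tested.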

How the results depend on the processing

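The count of members past the threshold stayed at 0 in all 4 comparisons under each of 19 alternatives, which included the dim-probe filter, variance trend, robust variances, 2-group fits and a threshold of 0.1. Over both lines, the difference of eIF-5A1 from WT ran from 0.32 to 0.44. Its adjusted p in limma ran from 0.0516 (array weights) to 0.431 (without WT pool 1). Since every silenced pool lay above every WT pool, only a change of scaling could have turned its sign. It stayed positive after median centring and after quantile normalisation. Signs of differences near 0 turned over, and since none was past the threshold the cause was not tested. After median centring these were eIF-5A2 in AS5 minus WT (-0.00374), eIF-5A4 in the mean of both lines (0.00464) and, in AS17 minus AS5, eIF-5A3 (0.0720) and eIF4E1 (0.0721). After quantile normalisation they were eIF-5A2 in AS5 minus WT (-0.0287), eIF-5A4 in AS17 minus WT (-0.0472) and, in AS17 minus AS5, eIF-5A1 (-0.0351) and eIF4E1 (0.0301). With array weights they were eIF-5A4 in AS5 minus WT (0.0222), in the mean of both lines (0.0222) and in AS17 minus AS5 (-2.27e-05), and in AS17 minus AS5 also eIF-5A3 (0.00358) and eIF4E1 (0.0756). Without both AS5 pool 3 and AS17 pool 1 they were eIF-5A4 in AS5 minus WT (0.0251), in the mean of both lines (0.0235) and in AS17 minus AS5 (-0.00315), and in AS17 minus AS5 also eIF-5A3 (0.0357) and eIF4E1 (0.0165). With 1 pool left out in turn, AS17 minus AS5 ran from -0.0667 to 0.115 for eIF-5A1, -0.0727 to 0.0892 for eIF-5A3, -0.0144 to 0.0768 for eIF-5A4 and -0.130 to 0.0676 for eIF4E1. For eIF-5A4 it ran from -0.0586 to 0.0251 in AS5 minus WT, -0.0397 to 0.0498 in AS17 minus WT and -0.0334 to 0.0179 in the mean of both lines.

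Over all probe sets, the 38, 135 and 128 calls of AS5, AS17 and the mean of both lines against WT became 200, 311 and 556 with array weights and 58, 354 and 252 at a threshold of 0.1, where AS17 minus AS5 gave 1. The 2-group fit gave 47 for AS17. Leaving out 1 pool gave 18 to 38, 20 to 140 and 27 to 110, and leaving out AS5 pool 3 and AS17 pool 1 gave 51, 315 and 208. With pool number as a replicate block the calls were 27, 74 and 78, 0 members passed, and eIF-5A1 had an adjusted p of 0.187 over both lines in limma. Of same-numbered pairs of pools, 2 of 9 had a correlation of deviations over 0.1 (range -0.38 to 0.55). Of pairs with different numbers, 7 of 18 did (range -0.68 to 0.56). Only 2 of 9 pools correlated best with a pool of their own number. No pairing of pools by number was seen in these values, and its absence was not tested.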

Other observations

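The array also carries control probe sets for elongation factor 1-alpha, which delivers aminoacyl-tRNA to the ribosome. Its 3′ control stood between 10.87 and 11.16 in silenced pools and between 10.83 and 10.94 in WT pools. Its 3 probe sets for the 5′ end stood between 9.10 and 9.82, 7.43 and 8.26, and 8.36 and 9.13 in silenced pools, against 8.79 and 9.39, 7.07 and 7.71, and 7.99 and 8.52 in WT pools. Its middle probe set stood between 10.21 and 10.68 in silenced pools and between 10.09 and 10.38 in WT pools. The pools overlapped in all 5.

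A pair of deposited member values were equal to all digits on arrays of different lines: eIF-5A4 at 11.64 in AS17 pool 1 and WT pool 3, and eIF4E1 at 8.45 in AS17 pool 2 and WT pool 2. Exactly equal values on at least 2 arrays occurred in 38.7% of the tested probe sets, and in 23.5% of those above background on every array. Their origin was not tested.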
